A study of Mus musculus with 6 samples.

Results

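The 10 Wnt ligand genes Wnt2, Wnt2b, Wnt4, Wnt5a, Wnt5b, Wnt6, Wnt9a, Wnt9b, Wnt11 and Wnt16 were followed in RNA from mouse aortic roots. They were taken by name from a table of 23420 gene symbols that lists 19 Wnt ligand genes in all. This choice was made with earlier results of these data known. Counts of members passing the filter, the background floor or the test therefore cannot be taken as independent of it. All 10 were present in the table and all 10 passed the filter on low counts, which left 15096 genes for testing.

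Wnt ligands are secreted glycoproteins that carry a lipid, added by the acyltransferase Porcn, and leave the cell with the carrier protein Wls. At the receiving cell they bind Frizzled receptors. With the co-receptors Lrp5 and Lrp6 this stabilises beta-catenin, whereas binding with Ror or Ryk receptors acts on cell polarity and movement without beta-catenin. Sclerostin, the product of Sost, is a secreted protein that binds Lrp5 and Lrp6 and so blocks the first route. In the heart, Wnt ligands are known from the growth of the outflow tract and of the valve cushions, and Wnt activity has been studied in valve calcification.

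The libraries came from 3 roots labelled Sost-/- and 3 roots labelled Sost+/+, all from C57Bl6/J mice aged 12 months. Both groups had received standard chow to 4 months and a high-cholesterol diet for the next 8 months, so no library shows the ligands without that diet. The labels do not name the deleted part of Sost, the sex of the mice or whether each root came from its own animal, and the p-values therefore cover only the spread among these 6 libraries. Replicates 1 to 3 were numbered in accession order within each label. The root, where the aorta leaves the heart, contains the valve cusps and has heart muscle around its base, so each library is a mixture of cell types. In such a mixture fewer cells of a type and less RNA per cell cannot be told apart.

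Total counts ran from 38870673 to 41803775 in the libraries labelled Sost-/- and from 37023586 to 48172863 in those labelled Sost+/+. Sost itself was not lower in the libraries labelled Sost-/-, which held 2284, 1063 and 513 Sost counts, against 354, 621 and 274 in those labelled Sost+/+ (log2 fold change 1.56, SE 0.48, edgeR adjusted p = 0.124). A two-sided exact permutation test gave p = 0.2 for Sost, and 3 against 3 libraries cannot go below 0.1. Sost counts thus did not bear out the labels, and the sets overlapped. Gene counts cannot tell an allele that still gives Sost transcript from exchanged labels, and neither was tested. Every direction below is for libraries by their label. Smooth muscle markers differed as well. Of 15 such markers, 12 were higher and 0 lower by the test, and their summed level was 4547 to 6803 CPM (counts scaled to a common library size by TMM) in the libraries labelled Sost-/- and 1692 to 3112 CPM in those labelled Sost+/+. Of 20 cardiomyocyte markers, 0 were higher and 2 lower, with sums of 67190 to 82840 CPM and 96480 to 110600 CPM in the same order of labels. Myh6 weighed most in these sums, at 22640 to 30370 CPM and 35100 to 37100 CPM. The markers were not uniform, since 3 had fold changes above 0, Myl4 (log2 fold change 0.65), Myl7 (0.46) and Sln (0.20). Myl7 spread 3.3-fold and 4.27-fold within the labels in the same order. Fibroblast markers, of which 0 of 12 passed in either direction, summed to 5319 to 6206 CPM and 4804 to 5185 CPM in that order. Of 8 adipocyte markers 0 passed in either direction in edgeR, all 8 had fold changes above 0 (median log2 fold change 1.38), and they summed to 223, 710 and 476 CPM in the libraries labelled Sost-/-, against 239, 243 and 130 CPM in those labelled Sost+/+, which overlap. No marker on these lists was at 0, nor was any on the endothelial and valve interstitial lists.

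All 10 ligands lay above background. Background was taken from 1458 olfactory, vomeronasal and trace-amine receptor genes, which few cells outside sensory tissue use, and levels were set per kilobase of merged exon (RPKM, which is CPM divided by that length) so that genes of different length could be compared. Between 93.5% and 95.7% of the receptor genes listed had a count of 0 in a library, so that their 95th percentile lay between 0 and 0.00772 RPKM. Each of the 10 ligands exceeded the 95th percentile in all 6 libraries. So did 4 of the 9 other Wnt ligand genes and 16008 of the 23074 genes with a known length. Among those 4 were Wnt1 (3 to 8 counts) and Wnt3 (1 to 7 counts), so this floor is low. The highest receptor gene of a library reached 5.18 to 7.68 RPKM, above the mean level of each ligand. Each of the 10 ligands also exceeded the 99th percentile, 0.0425 to 0.0672 RPKM, in all 6. The narrowest margin was that of Wnt2b, at 2.88 to 15.9 times the 99th percentile, and the widest that of Wnt9a, at 73.2 to 103 times.

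**Figure D1:**
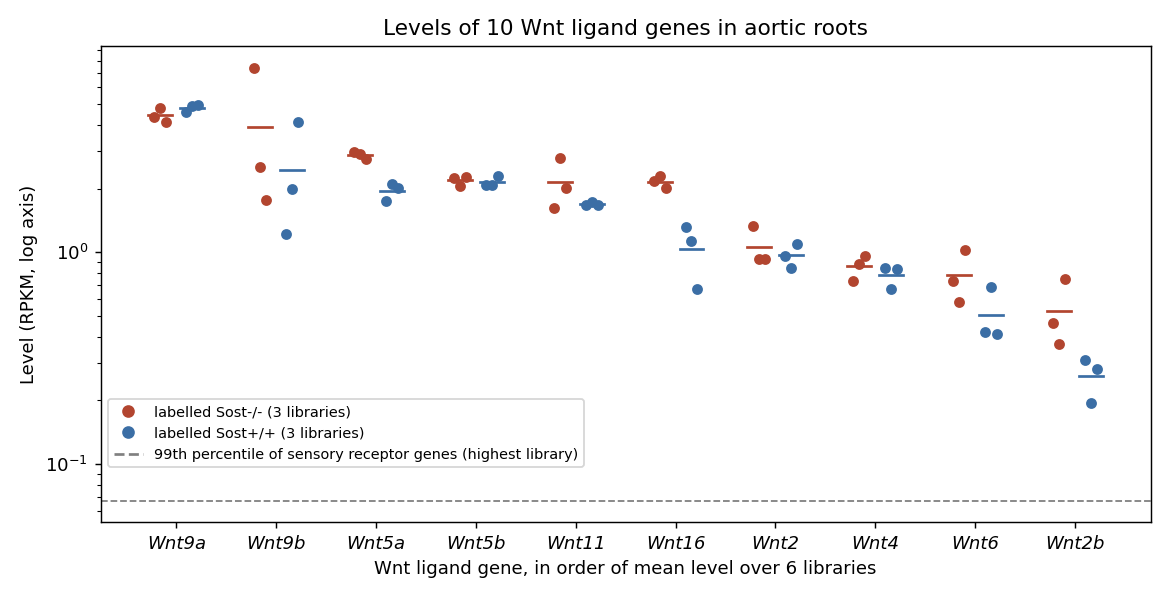
Level of each of the 10 Wnt ligand genes (RPKM, log axis) in the 3 libraries labelled Sost-/- (left of each pair) and the 3 labelled Sost+/+ (right). Points are libraries, short lines are means, and the dashed line is the highest 99th percentile of the sensory receptor genes, 0.0672 RPKM. All points lie above it, and the libraries of the 2 labels do not overlap for Wnt5a, Wnt16 and Wnt2b.

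In order of their mean level, the ligands ran from Wnt9a, at 4.63 ± 0.33 RPKM (SD, n = 6 over both labels), through Wnt9b (3.18 ± 2.31), Wnt5a (2.42 ± 0.53), Wnt5b (2.17 ± 0.11), Wnt11 (1.92 ± 0.44) and Wnt16 (1.60 ± 0.65). Wnt2 (1.02 ± 0.17), Wnt4 (0.82 ± 0.10), Wnt6 (0.64 ± 0.23) and Wnt2b (0.39 ± 0.19) formed the lower end of the same RPKM scale. The highest of them sat at the 68.7th percentile of mean RPKM over all genes with a length, and the lowest at the 42.9th. Each of the 9 neighbouring pairs in this order overlapped in range under at least 1 label, and 2 of them did so under both. Wnt9b and Wnt5a had overlapping ranges under both labels, and only 2 of 6 libraries held more Wnt9b than Wnt5a. Wnt4 and Wnt6 also overlapped under both labels, with 3 of 6 libraries in the order of the means. The lowest step was the steadiest, since all 6 libraries held more Wnt6 than Wnt2b.

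Under either label Wnt9a made up the largest mean share of the summed RPKM of the 10 ligands, 21.4% ± 2.95 in the libraries labelled Sost-/- and 29.1% ± 1.84 in those labelled Sost+/+ (SD, n = 3 each). Wnt9a ranked first in 5 of 6 libraries, and the exception was Sost-/- replicate 1, in which Wnt9b ranked first with a share of 30.9%. Wnt5a had shares of 12.4%, 14.5% and 14.8% in the libraries labelled Sost-/-, against 11.5%, 12.9% and 11.0% in those labelled Sost+/+. Wnt16 had 9.01%, 11.4% and 10.8%, against 8.72%, 6.92% and 3.64%. The Wnt16 shares did not overlap, whereas those of Wnt5a did. Shares of Wnt9a (18.1% to 23.9% against 27% to 30.3%) and Wnt5b (9.32% to 12.2% against 12.5% to 13.7%) did not overlap either. Both were lower in the libraries labelled Sost-/-. The shares of a library have a fixed sum, so a share can fall because other ligands are higher. Wnt5a, Wnt5b and Wnt11, the members best known for acting without beta-catenin, together held 28.4%, 38.4% and 37.8% of the ligand RPKM in the libraries labelled Sost-/-, against 36.3%, 36.2% and 32.6% in those labelled Sost+/+, which overlap. The summed level of all 10 was 24.1, 20.2 and 18.6 RPKM in the libraries labelled Sost-/-, against 15.2, 16.3 and 18.4 RPKM in those labelled Sost+/+, so the lowest of the first lay just above the highest of the second.

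**Figure D2:**
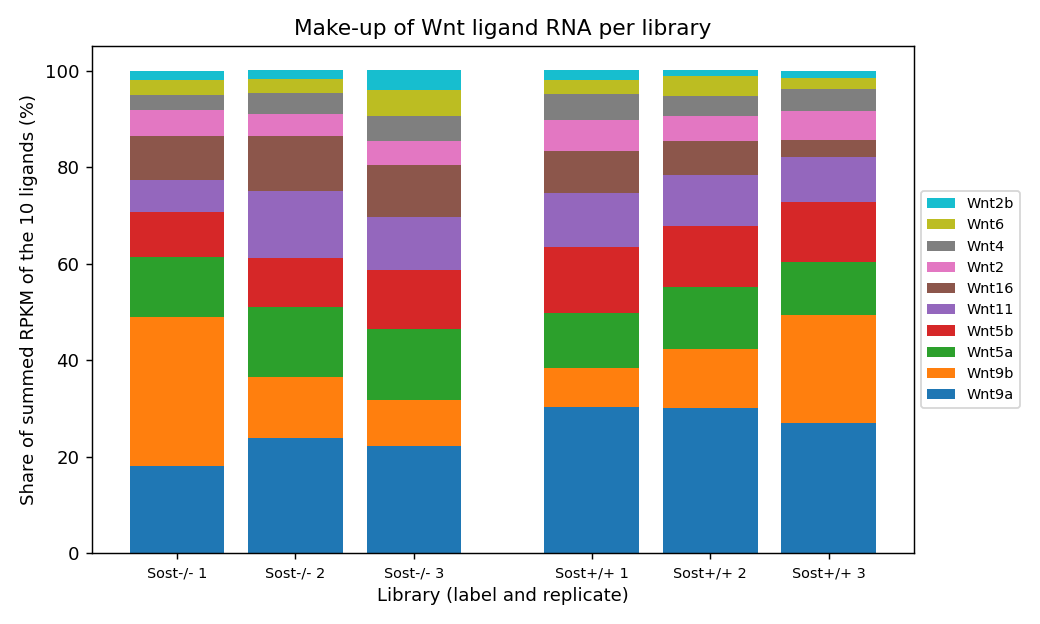
Share of each ligand in the summed RPKM of the 10 ligands (%), 1 bar per library, with the 3 libraries labelled Sost-/- on the left. Wnt9a is the largest share in all but Sost-/- replicate 1, where Wnt9b holds 30.9%.

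Wnt5a and Wnt16 rose in the libraries labelled Sost-/-, and the other 8 ligands did not pass the test. These 2 of 10 compare with 385 of the 15096 genes tested (2.55%), of which 329 were higher (2.18%) and 56 lower (0.371%). The median log2 fold change of the 10 was 0.45, against 0.0066 over all genes tested. Fold changes were above 0 for 9 of 10 ligands, with Wnt9a as the exception, and for 51.3% of all genes tested. The directions of the 10 were the same with DESeq2 size factors and with upper quartile scaling. Those of Wnt2, Wnt4, Wnt5b, Wnt6 and Wnt9b turned in another setting, with a library left out or with a cell type covariate. Libraries of the 2 labels did not overlap for 3 of 10 ligands, all higher in the libraries labelled Sost-/-, while 25.4% of all genes did not overlap in either direction and 14.3% did so upward. The test was the quasi-likelihood one of edgeR, and p-values were adjusted by Benjamini and Hochberg's method over all 15096 genes. DESeq2, used as an alternative, also called Wnt5a (adjusted p = 0.00088) and Wnt16 (adjusted p = 0.00058) and no other of the 10 ligands, where it called 7.98% of all genes tested.

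Wnt5a signals mainly through Ror2 and Frizzled without beta-catenin and is needed for the outflow tract of the mouse heart. The gene (ENSMUSG00000021994.15) maps to the plus strand of chromosome 14 (28504750 to 28527448) of mm10 (GENCODE M21). Its counts were 1000, 924 and 902 in the libraries labelled Sost-/-, against 606, 647 and 576 in those labelled Sost+/+. Each library labelled Sost-/- was above each labelled Sost+/+, and the 3 values within a label lay close together. Levels averaged 22.6 ± 0.94 CPM in libraries labelled Sost-/- and 15.3 ± 1.5 CPM in those labelled Sost+/+ (SD, n = 3 each), a log2 fold change of 0.56 (SE 0.10, 95% interval 0.33 to 0.79, edgeR adjusted p = 0.0288), or 1.48-fold. By p-value Wnt5a ranked 190th of the genes tested. The antisense gene Gm2670 overlaps 358 bases of Wnt5a exons and is not a row of its own in the count table, so reads from it could not be told apart if strand was not used in counting.

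Wnt16 is best known in bone, where it protects the cortical layer and restrains osteoclasts. The gene (ENSMUSG00000029671.15) maps to the plus strand of chromosome 6 (22288227 to 22298522), 4.26 Mb from Wnt2. Its counts were 405, 405 and 366 in the libraries labelled Sost-/-, against 257, 194 and 106 in those labelled Sost+/+. The libraries labelled Sost-/- were nearly alike, and those labelled Sost+/+ spread 1.98-fold in CPM, the lowest being replicate 3. Mean levels were 9.40 ± 0.63 CPM in libraries labelled Sost-/- and 4.54 ± 1.47 CPM in those labelled Sost+/+ (SD, n = 3 each), a log2 fold change of 1.05 (SE 0.22, 95% interval 0.54 to 1.55, edgeR adjusted p = 0.0476), or 2.06-fold. It ranked 358th by p-value.

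Both calls were close to the threshold. Leaving out any 1 library ended the call of Wnt16, whose adjusted p then ran from 0.0505 (without Sost+/+ replicate 3) to 0.148 (without Sost-/- replicate 3) in edgeR, with log2 fold changes of 0.80 to 1.24. For Wnt5a the call held without Sost+/+ replicate 2 (edgeR adjusted p = 0.0488) and ended without any of the other 5 libraries, where it ran from 0.0625 to 0.124, with log2 fold changes of 0.47 to 0.61 over all 6 omissions.

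**Figure D3:**
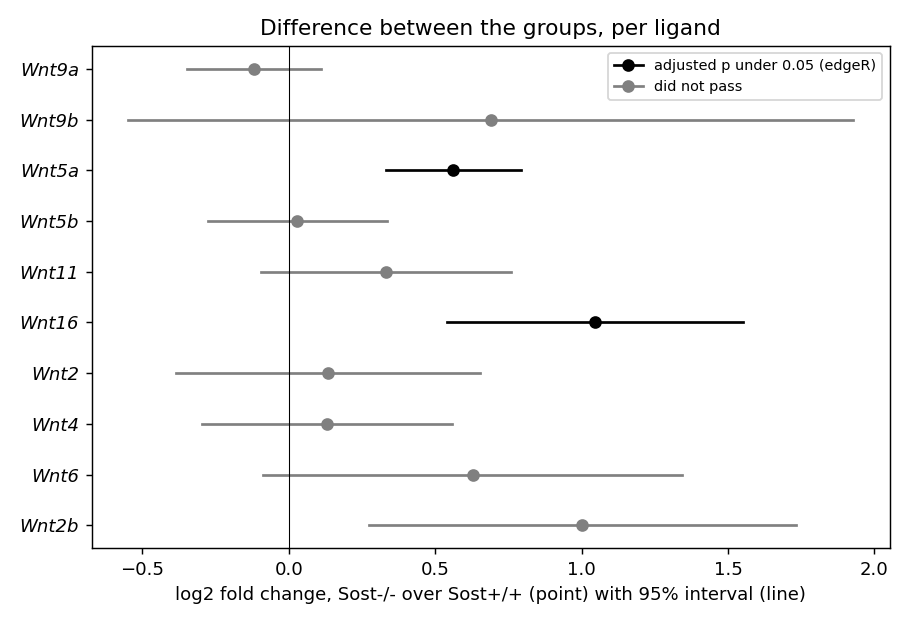
log2 fold change of each ligand, libraries labelled Sost-/- over those labelled Sost+/+ (points), with 95% intervals (lines) from edgeR, ordered by level. Black marks an adjusted p under 0.05, reached by Wnt5a (0.56) and Wnt16 (1.05); the interval of Wnt9b runs from -0.55 to 1.93.

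Levels of Wnt5a and Wnt16 stood beside those of smooth muscle markers in the same libraries. Summed smooth muscle markers were 5601, 4547 and 6803 CPM in Sost-/- replicates 1 to 3, against 1869, 3112 and 1692 CPM in Sost+/+ replicates 1 to 3. Among the libraries labelled Sost-/-, replicate 3 had the highest marker sum and the lowest Wnt5a and Wnt16, at 21.5 and 8.74 CPM. Among those labelled Sost+/+, replicate 2 had the highest marker sum and the highest Wnt5a, at 16.5 CPM, and replicate 3 had the lowest marker sum and the lowest Wnt16, at 2.91 CPM. The highest Wnt16 (5.76 CPM) and the lowest Wnt5a (13.6 CPM) of that label were both in replicate 1, whose marker sum lay between the others. Sost+/+ replicate 3 was also the library with the lowest sum of adipocyte markers. With the mean log2 CPM of these markers as a covariate in edgeR, Wnt5a was at 0.47 and Wnt16 at 0.75 on the log2 scale (adjusted p = 0.9998 for both, with 0 genes called in all and 399 at an unadjusted p under 0.05). A cardiomyocyte covariate gave 0.75 for Wnt5a (edgeR adjusted p = 0.146) and 0.85 for Wnt16 (edgeR adjusted p = 0.382). Neither score overlapped between the labels, at 7.39 to 7.95 against 5.95 to 6.81 for smooth muscle and 10.79 to 10.96 against 11.08 to 11.37 for cardiomyocytes, so these fits extrapolate. The part of cell makeup in the ligand differences was not tested beyond them.

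**Figure D4:**
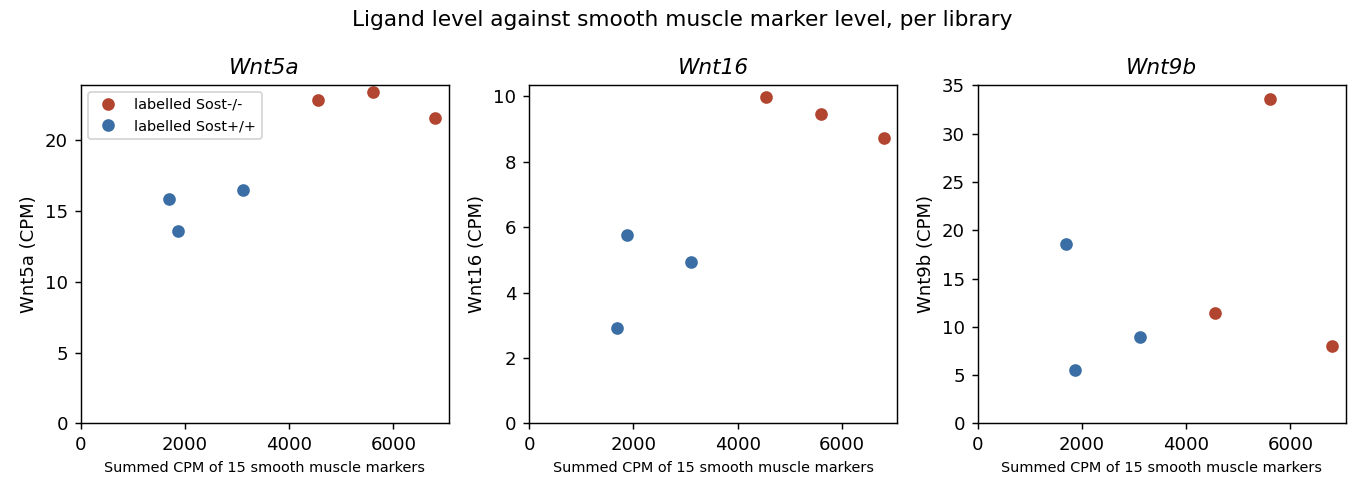
Level of Wnt5a, Wnt16 and Wnt9b (CPM) against the summed CPM of 15 smooth muscle markers, 1 point per library. For Wnt5a and Wnt16 the 3 libraries labelled Sost-/- are above and to the right of the 3 labelled Sost+/+, while Wnt9b is highest in Sost-/- replicate 1 (33.7 CPM) and Sost+/+ replicate 3 (18.6 CPM).

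Wnt5b, the closest paralog of Wnt5a, did not pass the test. It maps to the minus strand of chromosome 6 (119432531 to 119544347). Its counts were 255, 222 and 252 in the libraries labelled Sost-/-, against 246, 217 and 221 in those labelled Sost+/+, and the 2 sets overlapped. The log2 fold change was 0.030 (SE 0.14, 95% interval -0.28 to 0.34, edgeR adjusted p = 0.927). This interval just overlaps that of Wnt5a (0.33 to 0.79), and the difference between the fold changes of these genes was not tested. Per kilobase, Wnt5a stood to Wnt5b at ratios of 1.33, 1.41 and 1.21 in the libraries labelled Sost-/-, against 0.836, 1.01 and 0.884 in those labelled Sost+/+, so that Wnt5a was the higher of the pair in all 3 of the first and in 1 of the second. The spread of Wnt5b within a label, a coefficient of variation of 5.08% and 5.56% in the same order of labels, was no larger than the 6.52% that counting alone gives at its mean count.

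Wnt11, which in the mouse acts in the outflow tract and in heart muscle growth, maps to the plus strand of chromosome 7 (98835112 to 98855195). It had 286, 465 and 350 counts in the libraries labelled Sost-/-, against 310, 281 and 253 in those labelled Sost+/+. The libraries labelled Sost+/+ were alike at 6.95, 7.15 and 6.95 CPM, and those labelled Sost-/- ran from 6.68 CPM, below all of these, to 11.5 CPM in replicate 2. The log2 fold change was 0.33 (SE 0.19, 95% interval -0.10 to 0.76, edgeR adjusted p = 0.359), and without Sost-/- replicate 2 it was 0.099. The processed pseudogene Gm8398 overlaps 364 bases of Wnt11 exons on the other strand.

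Wnt9a and Wnt9b are paralogs that differed in steadiness. Wnt9a, known from the forming joints of the skeleton, maps to the plus strand of chromosome 11 (59306928 to 59333552). It had 622, 649 and 577 counts in the libraries labelled Sost-/-, against 681, 644 and 601 in those labelled Sost+/+. The sets overlapped, with a log2 fold change of -0.12 (SE 0.10, 95% interval -0.35 to 0.11, edgeR adjusted p = 0.545), the narrowest interval of the 10 together with that of Wnt5a.

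Wnt9b, known as a signal of the kidney ducts and of the endocardium over valve cushions in mouse and zebrafish, maps to the minus strand of chromosome 11 (103727364 to 103749821), 1.76 Mb from Sost. Its counts were 1440, 465 and 335 in the libraries labelled Sost-/-, against 246, 353 and 678 in those labelled Sost+/+. Levels spread 4.21-fold within the first label and 3.37-fold within the second, where counting alone gives a coefficient of variation of 4.13%. The highest libraries were Sost-/- replicate 1 and Sost+/+ replicate 3, 1 of each label, and the sets overlapped. The log2 fold change was 0.69 (SE 0.55, 95% interval -0.55 to 1.93, edgeR adjusted p = 0.513), and without Sost-/- replicate 1 it was -0.18. Sost counts in the same libraries were highest in Sost-/- replicate 1 too, at 2284, but lowest in Sost+/+ replicate 3, at 274. Valve interstitial markers summed to 1035, 1153 and 1149 CPM in the libraries labelled Sost-/-, against 946, 959 and 1209 CPM in those labelled Sost+/+. Endothelial markers summed to 1332, 954 and 1015 CPM, against 1136, 1297 and 1159 CPM. Neither sum was ordered over the 6 libraries as Wnt9b was, and abundant markers weigh most in such sums. Of single markers, Hapln1 of the valve list was highest in Sost-/- replicate 1 (6.08 CPM) and next in Sost+/+ replicate 3 (3.79 CPM), as Wnt9b was. So was Nos3 of the endothelial list, at 77.5 and 60.25 CPM. No other marker of these lists had the same libraries highest, and a link to Wnt9b was not tested. Sost-/- replicate 1 had the highest endothelial sum but the lowest valve sum of its label. Sost+/+ replicate 3 had the highest valve sum but a lower endothelial sum than replicate 2 of its label.

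The remaining 4 ligands were the lowest. Wnt2b, a ligand of the developing eye and lung on the minus strand of chromosome 3 (104945272 to 104961921), had 83, 63 and 131 counts in the libraries labelled Sost-/-, against 58, 32 and 43 in those labelled Sost+/+. The sets did not overlap, and the fold change was nearly that of Wnt16 (log2 fold change 1.0, SE 0.32, 95% interval 0.27 to 1.73, edgeR adjusted p = 0.137). Its libraries spread more than those of Wnt16 under the label Sost-/- (coefficient of variation 37.1% against 6.71%) and less under the label Sost+/+ (23.1% against 32.4%). Without Sost-/- replicate 3, its highest library, the value was 0.67. That library, in which Wnt6 was highest too, also had the highest sum of mesothelial and epicardial markers. The sums were 22.15, 19.51 and 127.6 CPM in Sost-/- replicates 1 to 3, against 22.31, 31.46 and 45.21 CPM in Sost+/+ replicates 1 to 3. Of these 8 markers 0 passed in edgeR, and a link to Wnt2b or Wnt6 was not tested. Wnt6, on the plus strand of chromosome 1 (74771892 to 74785322), is a ligand of epithelia and had 69, 52 and 94 counts in the libraries labelled Sost-/-, against 41, 59 and 33 in those labelled Sost+/+. Its sets overlapped in 1 library of each label (log2 fold change 0.63, SE 0.32, 95% interval -0.087 to 1.34, edgeR adjusted p = 0.302).

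Wnt2 and Wnt4 overlapped between the labels and did not pass. Wnt2, which in the mouse acts in the lung and in the vessels of the placenta, maps to the minus strand of chromosome 6 (17988940 to 18030585). It had 128, 85 and 88 counts in the libraries labelled Sost-/-, against 97, 75 and 90 in those labelled Sost+/+ (log2 fold change 0.13, SE 0.23, 95% interval -0.38 to 0.65, edgeR adjusted p = 0.779). Wnt4, a ligand of kidney and ovary formation, maps to the plus strand of chromosome 4 (137277489 to 137299726). It had 131, 150 and 169 counts in the libraries labelled Sost-/-, against 157, 111 and 128 in those labelled Sost+/+ (log2 fold change 0.13, SE 0.19, 95% interval -0.30 to 0.56, edgeR adjusted p = 0.737).

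Promoter sequence was at hand for 9 of the 10 ligands (RefSeq, GRCm38.p6), all but Wnt5a, and the 250 bases before the annotated start were searched on both strands. Those of Wnt16, the ligand with the largest fold change, are shown beside Wnt9a, the ligand with the highest level and no call, and Wnt11, in which a TCF/LEF match lies near the first start. TCF and LEF factors carry beta-catenin to DNA. Capitals mark matches to 5 motifs. For TCF/LEF these were CTTTGAT and, as the other form, CTTTGTT. The E-box was CACGTG. The TATA box was searched as TATAAA. The CCAAT box was searched by the letters of its name, and the CArG box of serum response factor by its usual consensus. The marked matches do not overlap each other. GC boxes, GGGCGG, were counted and left in lower case. The windows, all on the plus strand, are chr6:22287977-22288226 for Wnt16, chr11:59306680-59306929 for Wnt9a and chr7:98834862-98835111 for Wnt11.
Wnt16: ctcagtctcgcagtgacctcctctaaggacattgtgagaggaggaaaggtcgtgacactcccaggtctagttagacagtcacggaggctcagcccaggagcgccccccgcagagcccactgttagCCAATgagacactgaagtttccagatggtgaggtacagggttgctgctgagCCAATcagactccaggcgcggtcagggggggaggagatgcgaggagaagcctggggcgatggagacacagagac
Wnt9a: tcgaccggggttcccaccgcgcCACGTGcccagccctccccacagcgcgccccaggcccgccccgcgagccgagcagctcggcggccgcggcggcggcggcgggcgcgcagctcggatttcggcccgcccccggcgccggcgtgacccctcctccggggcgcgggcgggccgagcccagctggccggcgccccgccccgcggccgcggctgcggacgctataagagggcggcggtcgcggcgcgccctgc
Wnt11: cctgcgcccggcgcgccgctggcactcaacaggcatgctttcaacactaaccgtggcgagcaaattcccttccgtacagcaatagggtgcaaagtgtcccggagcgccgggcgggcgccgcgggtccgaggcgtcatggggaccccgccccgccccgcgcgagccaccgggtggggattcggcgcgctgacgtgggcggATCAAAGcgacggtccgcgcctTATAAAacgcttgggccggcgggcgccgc

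The Wnt16 window held 59.2% G and C and 9 CpG dinucleotides, against 84.4% and 48 for Wnt9a, 70.8% and 37 for Wnt11, and medians of 52.4% and 6 over 32841 such windows of the genome. Its only matches were CCAAT boxes, beginning 125 and 74 bases before the start, and 33.9% of all windows hold at least 1. The Wnt9a window held 1 E-box, 228 bases before the start, a motif in 6.02% of windows. In the Wnt11 window a TCF/LEF match on the minus strand began 51 bases and a TATA box 29 bases before the start, motifs found in 8.06% and 12.4% of windows. The other Wnt11 window held no TCF/LEF match, and 1 window of Wnt5b held a TCF/LEF match beginning 71 bases before its start. No window of the 9 ligands searched held a CArG box, which 1.47% of all windows hold, and Wnt5a was not searched. GC boxes numbered 0 in the Wnt16 window, 5 in that of Wnt9a and 4 in that of Wnt11, and 32.7% of all windows hold at least 1. These matches describe letters in these windows and do not show that a factor binds there.

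Genes most like the called ligands in pattern were found by the root mean square difference of log2 CPM over the 6 libraries, each gene centred on its own mean. Nearest to Wnt5a were Zfr2 (0.052), Neu3 (0.052), Ccdc120 (0.055), Dact3 (0.067) and Napepld (0.068), where the median over all named genes was 0.34. Neu3 encodes a sialidase, Dact3 a dishevelled-binding protein that restrains Wnt signalling, and Napepld an enzyme of N-acylethanolamine lipids. Among the nearest to Wnt16 were Sncg (0.10), the microRNA gene row Mir99a (0.12), Lrrc17 (0.15) and Cntn1 (0.16), against a median of 0.65. Sncg, which encodes gamma-synuclein, is 1 of the 15 smooth muscle markers, and Lrrc17 encodes a secreted protein that restrains osteoclasts in the mouse. The choice by pattern fixes the direction of these 9 genes, whose log2 fold changes were 0.49 to 0.53 for the 5 near Wnt5a and 0.95 to 1.31 for the 4 near Wnt16. Of the 9, Dact3, Napepld, Sncg and Lrrc17 passed the edgeR test and the other 5 did not.

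Other genes of the Wnt pathway were read from the same fit by role, in which 2.55% of all genes tested passed. Among 14 genes listed under Wnt processing and secretion, 1 was higher and 0 lower (median log2 fold change -0.024). The member that rose was Reck, whose membrane protein acts with Adgra2 in receiving Wnt7 signals in brain vessels, so this is not a call on processing or secretion. Reck was the only call on that list. It had 36.5, 31.8 and 39.0 CPM in the libraries labelled Sost-/-, against 16.8, 23.6 and 22.8 CPM in those labelled Sost+/+ (log2 fold change 0.77, SE 0.14, edgeR adjusted p = 0.0279). Porcn and Wls, on which every ligand depends, had log2 fold changes of 0.31 and 0.10 (edgeR adjusted p = 0.254 and 0.567). Wls stood at 101, 96.8 and 116 CPM in the libraries labelled Sost-/-, against 96.7, 94.7 and 99.9 CPM in those labelled Sost+/+, which overlap.

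Of 10 Frizzled receptors 0 passed in either direction in edgeR, 8 had fold changes above 0, and the median log2 fold change was 0.33. The lowest p was that of Fzd7 (0.52, SE 0.12, edgeR adjusted p = 0.0661). Of 8 co-receptors 0 passed (median 0.088), with Ror1 lowest in p (0.59, SE 0.17, edgeR adjusted p = 0.108). Ror2, the receptor best known for Wnt5a, was at 2.80, 2.84 and 2.53 CPM in the libraries labelled Sost-/-, against 2.22, 3.00 and 3.10 CPM in those labelled Sost+/+ (log2 fold change -0.024).

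Of 11 measured secreted antagonists, a list that includes Sost, 1 rose and 0 fell (median 0.57). This was Sfrp4, a Frizzled-like decoy of Wnt ligands, at 3.13, 4.49 and 4.11 CPM in the libraries labelled Sost-/-, against 1.41, 1.63 and 1.35 CPM in those labelled Sost+/+ (log2 fold change 1.42, SE 0.22, edgeR adjusted p = 0.0187). Of 7 measured genes of the R-spondin axis, which keeps Frizzled receptors on the surface, 0 passed (median 0.20), and Rspo1 was lowest in p (0.67, SE 0.22, edgeR adjusted p = 0.138). Downstream, 1 of 20 beta-catenin pathway and target genes rose and 0 fell (median 0.22). Nkd1, a feedback inhibitor, had 21.4, 17.1 and 23.0 CPM in the libraries labelled Sost-/-, against 8.12, 12.6 and 8.68 CPM in those labelled Sost+/+ (log2 fold change 1.07, SE 0.18, edgeR adjusted p = 0.0247). Axin2, the usual readout of this route, was at 0.36 (SE 0.15, edgeR adjusted p = 0.224), with overlapping libraries. Of these 20 genes, 13 had fold changes above 0. Among those below 0 were Lgr5 (-0.73, edgeR adjusted p = 0.285) and Ccnd1 (-0.21, edgeR adjusted p = 0.228). Of 23 planar polarity genes 1 rose and 0 fell (median 0.033), namely Prickle2 (0.57, SE 0.11, edgeR adjusted p = 0.0407), which encodes a core protein of cell polarity.

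The calls of Reck, Sfrp4, Nkd1 and Prickle2 all ended without Sost-/- replicate 3, without Sost+/+ replicate 1 and without Sost+/+ replicate 3. Those of Reck and Prickle2 also ended without Sost-/- replicate 1, and that of Prickle2 without Sost+/+ replicate 2. DESeq2, which called 7.98% of all genes tested, called these 4 and 9 more genes of the pathway lists higher and 0 lower. The further ones were the receptors and co-receptor Fzd1, Fzd7 and Ror1, the antagonists Sfrp1, Sfrp2 and Igfbp4, Apcdd1 of the beta-catenin list, and Prickle1 and Celsr2 of the planar polarity list.

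**Figure D5:**
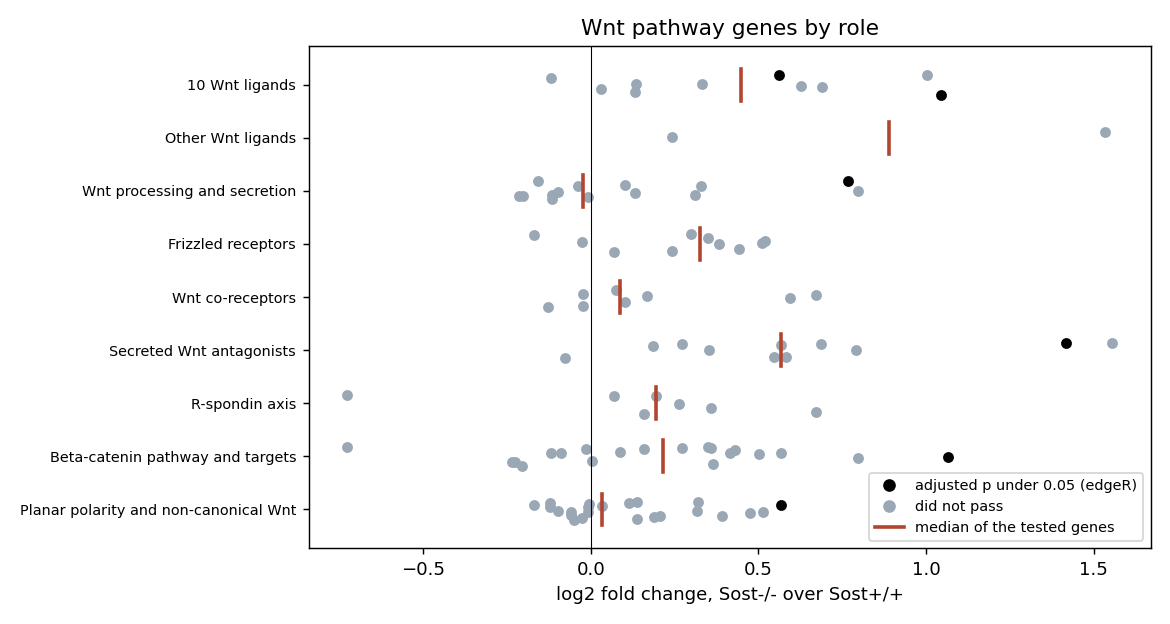
log2 fold change, libraries labelled Sost-/- over those labelled Sost+/+, of each tested Wnt pathway gene (points) by role, with the median of each list (vertical bars). Black points passed at an adjusted p under 0.05 in edgeR: Wnt5a and Wnt16 among the 10 ligands, Reck, Sfrp4, Nkd1 and Prickle2 among the other lists.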

How the data were processed

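RNA was extracted with Trizol and made into libraries with a directional kit, per the labels' protocols. The deposited table holds read counts per gene symbol, and a second deposited table holds normalized signal, which equals the counts divided by 1 factor per library, the size factors DESeq2 gives. DRAGEN, HTSeq, DESeq2 and the mm10 build were used, per the submitters' processing notes. Tool versions were not given in the sources used here, nor was the strand setting.

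Samples were grouped by the genotype label. edgeR 4.0.16 in R 4.3.3 gave the main test: filterByExpr (minimum count 10, total 15), TMM scaling, glmQLFit and glmQLFTest, adjusted by Benjamini-Hochberg with a 0.05 threshold. CPM uses TMM-scaled library sizes, and RPKM divides it by merged exon length (GENCODE M21). Log2 CPM for the covariates and for patterns used a prior count of 2. Simulated counts for these 2 labels (15025 genes tested) gave 148 calls, 6 of them false, and recovery of 20.9% at a log2 change of 0.5, 92.5% at 1 and 100% at 2. Each simulated gene had the same dispersion (a biological coefficient of variation of 0.141), and no shift in cell makeup was simulated. Ligands that spread more, such as Wnt9b (coefficient of variation 78.6% under the label Sost-/-), may be recovered less often than this.

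The members and the gene lists were chosen with earlier results of these data known. Named genes were the 10 ligands, Sost, list members that passed or else the 1 of smallest p, and the 5 nearest in pattern, of which 1 is not reported here. Porcn, Wls, Ror2, Axin2, Lgr5, Ccnd1, single cell type markers and the DESeq2 calls were named after their values were seen, and so were the promoters and motifs. Alternatives were other scaling, filters, tests (DESeq2 1.42.0, limma 3.58.1 with voom or on the authors' normalized signal plus a pseudocount of 1), covariates and each library left out.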

Additional observations from a re-analysis of the deposited data

How the results depend on the processing

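No paired analysis was possible because the labels number the 6 samples in 1 run and pair none of them. All 10 ligands stayed above background under the 99th percentile, on CPM and by the filter alone. The 2 ligand calls stayed under other scaling, filters, robust dispersion, DESeq2, limma-voom and limma on the deposited values. Ligand calls numbered 0 with the smooth muscle covariate and 0 with the cardiomyocyte covariate (0 and 2 at an unadjusted p under 0.05), and 0 to 1 with 1 library left out (2 to 4 at an unadjusted p under 0.05). Genes called in all were 1205 by DESeq2, 148 with the cardiomyocyte covariate, 0 with the smooth muscle covariate (399 at an unadjusted p under 0.05) and 0 to 349 with 1 library left out, where 0 was without Sost+/+ replicate 1 (2262 at an unadjusted p under 0.05). DESeq2's calls were 64.0% higher, against 85.5% by edgeR. Other Wnt pathway genes called were 4, against 9 without a filter, 13 by DESeq2, 0 with the smooth muscle covariate and 0 to 5 with 1 library left out. Directions turned for Wnt2 (-0.058 to 0.22 with 1 library left out), Wnt5b (-0.0070 to 0.071), Wnt9b (-0.18 to 1.29), Wnt4 with the cardiomyocyte covariate (-0.12) and Wnt6 with the smooth muscle covariate (-0.82). None of these 5 was called, and the cause was not tested. Of the 4 genes named as near Wnt16 in pattern, 2 were kept among the nearest when genes averaging under 1 CPM were left out. Counts of 32 to 131 for Wnt2b limit its precision.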

Other observations

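Of the other 9 Wnt ligand genes, Wnt10b and Wnt7a passed the filter on low counts. Wnt10b, which restrains fat cell formation and favours bone formation in the mouse, had 85, 88 and 89 counts in the libraries labelled Sost-/-, against 81, 67 and 65 in those labelled Sost+/+ (log2 fold change 0.24, SE 0.20, edgeR adjusted p = 0.531). Wnt7a, a ligand of limb and nervous system, had 64, 15 and 19 counts, against 1, 12 and 18. Its highest library, Sost-/- replicate 1, was also the one with the most Wnt9b and Sost. Wnt8a had 0 counts in all 6 libraries. For counting error only, a single library with 0 counts allows an expected count of up to 3 at 95% confidence, and the 6 together allow less.

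Several Wnt genes lie side by side in the genome, and only 1 of each such pair reached the level of the 10 ligands or of Wnt10b. Wnt6 (33 to 94 counts) lies 6.19 kb from Wnt10a (0 to 4 counts) on chromosome 1. Wnt9a (577 to 681 counts) lies 16.2 kb from Wnt3a (0 to 2 counts), and Wnt9b (246 to 1440 counts) lies 24.3 kb from Wnt3 (1 to 7 counts), both on chromosome 11. Wnt10b (65 to 89 counts) lies 11.7 kb from Wnt1 (3 to 8 counts) on chromosome 15.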
